A study of Drosophila melanogaster with 4 samples.

Results

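The genes described here are 10 precursors of secreted peptides in the head of the adult fly, Nplp1, Nplp2, Nplp3, Nplp4, sNPF, Dsk, Crz, CCAP, Dh31 and Akh. They were chosen by name from a table of 16680 genes, and the choice used no threshold on their values but was made with earlier results of these data known. All 10 had a row, and all 10 reached the mean of at least 1 FPKM (sequenced fragments scaled by transcript length and by the mapped reads of the library) that was required for the test between groups. None of the 10 passed that test, which 9 of 10194 genes passed, and their values in each library are given as measurements. The libraries came from F1 male heads of the Drosophila melanogaster strain Kr[If-1], a gain-of-function allele of the zinc finger gene Krüppel that can produce outgrowths of the eye, in a stock that also carries the body colour allele b[1]. The parents had been exposed to Cr(VI), given as K2Cr2O7 in the food and at 10 µM in most experiments of the study, so Kr[If-1] and exposed parents were common to all 4 libraries. The comparison was between 2 libraries of heads with phenotypic variations of the eye and 2 libraries of heads without them, and it asked which transcripts differ with the phenotype. Each library was made from 10 pooled heads and the labels call the repeats biological. The sources used here do not give the age of the flies or which parent was exposed for these heads, and heads from unexposed parents were not analysed here.

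Neuropeptides are short signals cut out of larger precursor proteins in the secretory pathway of neurons and endocrine cells. A prohormone convertase cleaves the precursor, a carboxypeptidase trims the ends, many products receive an amide group, and the finished peptides wait in dense core vesicles until release. Most of them act on G protein-coupled receptors, and in the adult fly they tune feeding, sleep, stress responses, courtship and metabolism. The 4 Nplp genes were named neuropeptide-like because their peptides were first seen in extracts of nervous tissue, and their functions are less well known than those of the other 6 genes.

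The libraries differed little in depth as far as the values allow. Judged by the lowest values of short transcripts, 1 read was worth about 0.0180 and 0.0205 FPKM with phenotype and 0.0199 and 0.0181 FPKM without phenotype for a transcript of 1000 bp. A shift common to many genes was present, since 62.7% of genes tested had a log2 fold change above 0, a share of 47.8% when libraries were scaled by the median ratio. Neuronal transcripts were present in every library, with elav, an RNA-binding protein of all neurons, at 23.2 and 21.1 FPKM with phenotype and at 20.6 and 21.9 FPKM without phenotype. Fold changes are differences of log2(FPKM + 1), which understates the change of genes at low FPKM, and p-values measure only the spread between these libraries.

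The levels of the 10 genes spanned 3 orders of size. FPKM is per transcript length, so that genes can be set beside each other. With phenotype the order of the means was Nplp2, Nplp3, Dsk, Dh31, Nplp1, Akh, sNPF, Crz, Nplp4 and CCAP. Within that order the ranges of Dh31 and Nplp1, of Nplp1 and Akh and of Akh and sNPF overlapped, and the other neighbours were apart in both libraries. Dh31 was nonetheless above Nplp1 within each library with phenotype. Without phenotype the order was Nplp3, Nplp2, Nplp1, Dh31, Dsk, sNPF, Akh, Crz, Nplp4 and CCAP. The ranges of the 4 genes from Nplp1 to sNPF overlapped, each with the next. Within each library without phenotype sNPF was below Nplp1 and Dh31, while the place of Dsk differed between the libraries. Nplp2 and Nplp3 stood in opposite order in the 2 groups, and Dsk stood next after them with phenotype but was within the 4 genes of overlapping ranges without phenotype. The plot of the 10 genes by library shows these levels.

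**Figure D1:**
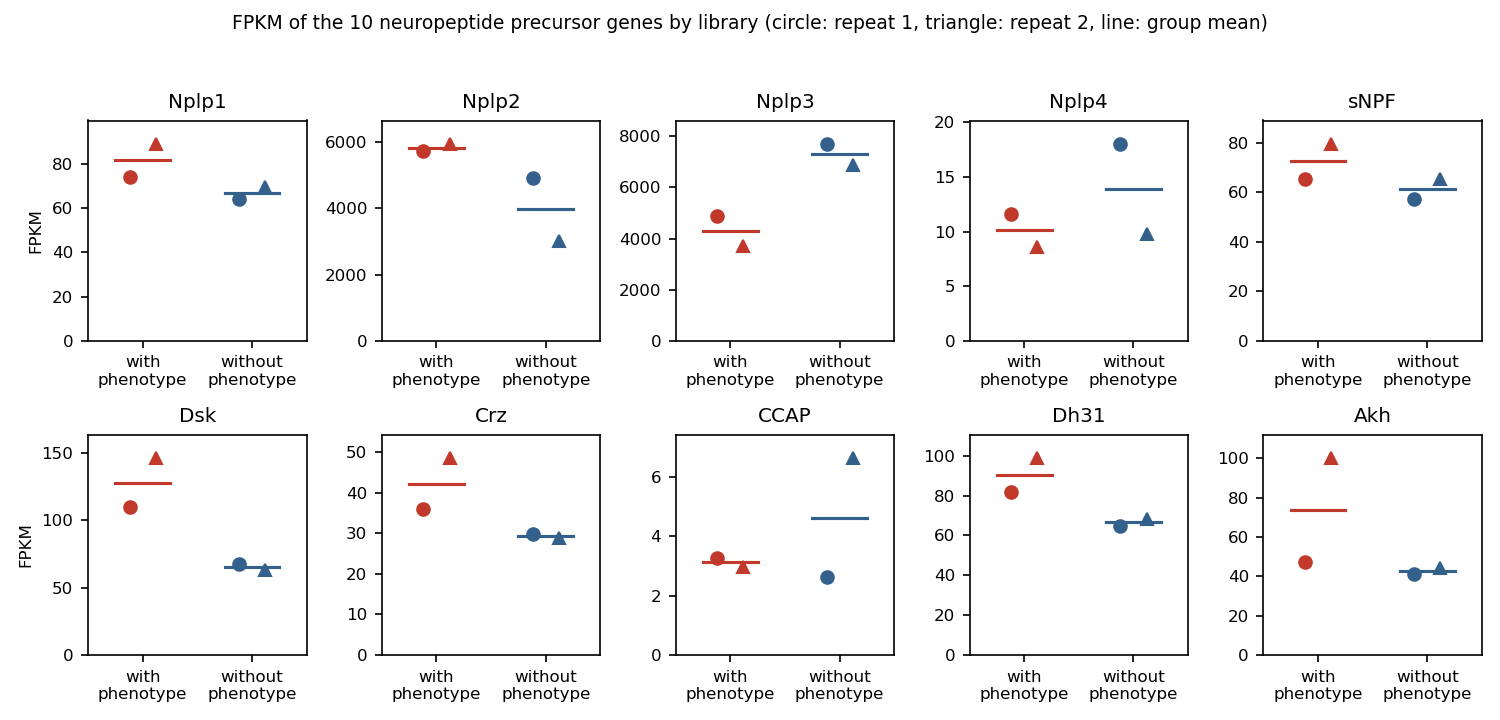
FPKM (vertical axes, each from 0) of the 10 precursor genes in the 2 libraries with phenotype and the 2 without, where circles are repeat 1, triangles repeat 2 and lines group means. Both libraries with phenotype lie above both without for 7 genes, below for Nplp3, and overlap for Nplp4 and CCAP.

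Nplp2 ranked at 2 among all genes by FPKM in both libraries with phenotype and at 4 in both without. It is also known as an immune-induced peptide of the haemolymph, and the gene lies on 3L at 13356376 to 13357223 (plus strand, dm6), has 3 annotated transcripts and codes for at most 119 residues. Nplp2 was at 5727 and 5939 FPKM with phenotype, against 4926 and 3018 FPKM without phenotype. Both libraries with phenotype were higher than both without, and the lowest value belonged to repeat 2 without phenotype. The 2 repeats with phenotype were close, at a ratio of 1.04 of the higher to the lower, whereas those without phenotype were 1.63 apart. The means were 5833 ± 150.2 FPKM with phenotype and 3972 ± 1349 FPKM without phenotype (SD, n = 2 each), a log2 fold change of 0.60 with a standard error of 0.26 that did not pass (adjusted p = 0.25 from limma over all genes tested). The difference depended on which library without phenotype was kept. Without repeat 1 of that group the log2 fold change of Nplp2 was 0.95, and without repeat 2 of that group it was 0.24. Each such fit took the spread of the lone library from the other group and from other genes.

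Nplp3 went the other way and was the only one of the 10 genes with both libraries with phenotype below both without. Nplp3 codes for a small secreted protein of 90 residues whose predicted peptides carry names such as VVIamide. The gene lies on 3L at 16318024 to 16318690 (plus strand) and has 1 transcript of 2 exons. Nplp3 was at 4880.4 and 3714 FPKM with phenotype, against 7695 and 6896 FPKM without phenotype, and ranked at 4 among all genes in both libraries with phenotype and at 2 in both without. The highest library with phenotype was therefore well under the lowest without. The means were 4297 ± 825 FPKM with phenotype and 7296 ± 565 FPKM without phenotype (SD, n = 2 each), a ratio of 0.589. The log2 fold change was -0.77 with a standard error of 0.18, with an unadjusted p of 0.0085 and an adjusted p = 0.15 from limma, which did not pass. Leaving out each library in turn gave -0.97 to -0.58.

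The ratio of Nplp2 to Nplp3 within a library does not depend on how libraries are scaled. Nplp2 stood at 1.17 and 1.60 times the FPKM of Nplp3 with phenotype, against 0.640 and 0.438 times without phenotype. Nplp2 was thus above Nplp3 in both libraries with phenotype and below it in both without. As a share of all FPKM, Nplp2 made up 0.986% and 1.00% with phenotype and 0.810% and 0.516% without phenotype. Nplp3 made up 0.840% and 0.625% with phenotype and 1.27% and 1.18% without phenotype. Neither gene shares exons with another annotated gene. Of the genes within 10000 bp, the highest beside Nplp3 was CG13042 at up to 20.3 FPKM, among 12 neighbours with a row, and beside Nplp2 it was CG17687 at up to 0.470 FPKM, so that the levels of both genes stood alone in their neighbourhoods.

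Nplp4 and Nplp1 were less abundant. Nplp4, which codes for 64 residues and lies on 2L at 2008414 to 2009072 (plus strand), was at 11.6 and 8.62 FPKM with phenotype, against 18.0 and 9.78 FPKM without phenotype. The groups overlapped, and the value of repeat 1 without phenotype was 1.84 times that of repeat 2. The log2 fold change was -0.38 with a standard error of 0.31 (limma adjusted p = 0.48), and leaving out each library gave -0.79 (without repeat 2 without phenotype) to 0.032 (without repeat 1 without phenotype). Nplp1, on 2R, codes for 487 residues that hold several peptides, including IPNamide and MTYamide, and is made by a few neurons of the brain and ventral nerve cord. Nplp1 was at 74.3 and 89.0 FPKM with phenotype, against 64.0 and 69.8 FPKM without phenotype. Both libraries with phenotype were higher than both without, by a log2 fold change of 0.28 with a standard error of 0.12 (limma adjusted p = 0.26, 95% confidence interval -0.05 to 0.60). Without repeat 2 of the heads with phenotype the log2 fold change of Nplp1 was 0.15.

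The genes whose log2(FPKM + 1), centred over the 4 libraries, was nearest to that of Nplp2, Nplp3 or Nplp4 are a description over 4 points and carry no test. Among 1034 genes of at least 100 FPKM on average, CG7296 was nearest to Nplp3, at 239 and 191 FPKM with phenotype and 386 and 350 FPKM without phenotype (Euclidean distance 0.054). Next to Nplp3 came Prm, the muscle protein paramyosin, at 225 and 185 FPKM with phenotype and 329 and 289 FPKM without phenotype (distance 0.20). Then came Acp1, a protein of the adult cuticle, at 2636 and 1867 FPKM with phenotype and 3735 and 2915 FPKM without phenotype (distance 0.26). Nearest to Nplp2 were ssp7, CG13833 and CG3088 (distances 0.14, 0.16 and 0.19), all of which had their lowest value in repeat 2 without phenotype. ssp7 was at 395 and 371 FPKM with phenotype and 349 and 206 FPKM without phenotype. Nearest to Nplp4 were CG32444, CG7322 and Tal (distances 0.097, 0.16 and 0.17), all highest in repeat 1 without phenotype. CG32444 was at 441 and 365 FPKM with phenotype and 681 and 378 FPKM without phenotype. The plot of centred values shows that the 3 Nplp genes followed 3 different orders of the libraries.

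**Figure D2:**
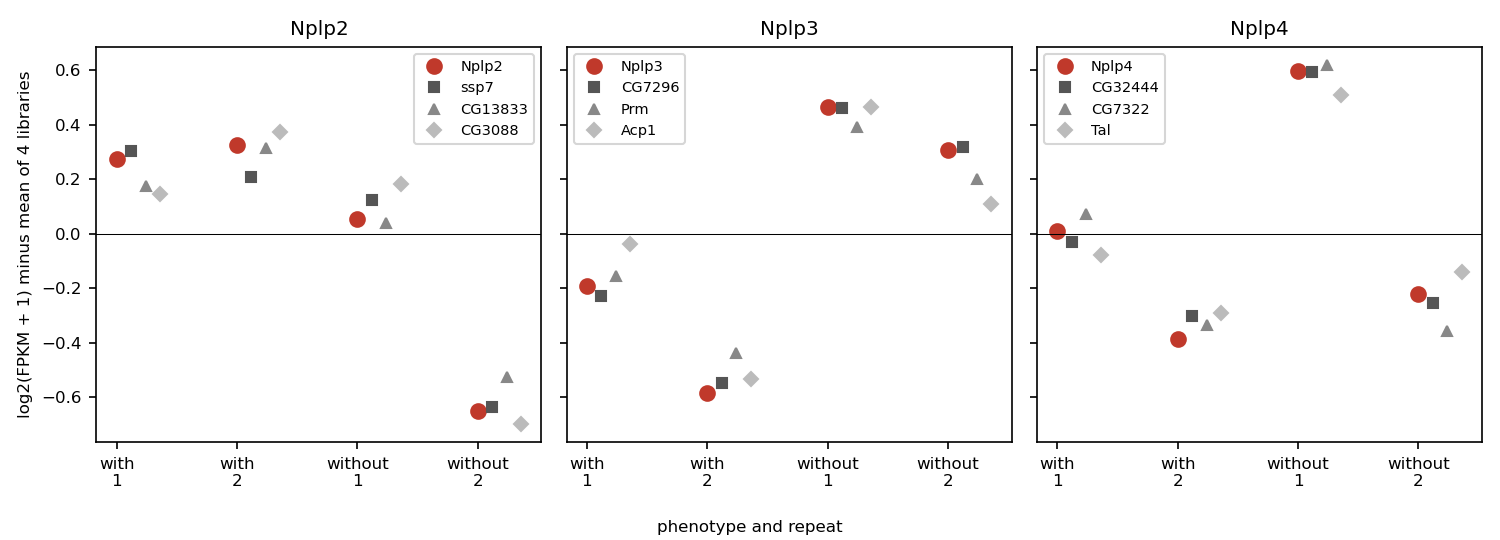
log2(FPKM + 1) minus its mean over the 4 libraries (vertical axis) for Nplp2, Nplp3 and Nplp4 (red circles) and the 3 genes nearest to each (grey symbols), by phenotype and repeat. Nplp2 and its neighbours were lowest in repeat 2 without phenotype, Nplp3 and its neighbours lowest in repeat 2 with phenotype, and Nplp4 and its neighbours highest in repeat 1 without phenotype.

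Transcripts of the epidermis and of muscle, like Nplp3, were at lower FPKM with phenotype. Of 14 tested genes of the epidermis and adult cuticle, 13 had lower FPKM with phenotype, with a median log2 fold change of -0.55, and none passed limma's test (4 lower at an unadjusted p under 0.05, against 6.67% of all genes). The summed FPKM of the 17 genes of that list with a row was 3879 and 2911 with phenotype and 5253 and 5138 without phenotype. Most of that sum in every library came from Acp1, already named for its nearness to Nplp3. Acp1 was at 2636 and 1867 FPKM with phenotype and 3735 and 2915 FPKM without phenotype. No gene of the list was at 0 in any library. Of 17 muscle genes, 16 had lower FPKM with phenotype, with a median of -0.49 and sums of 6035 and 5583 FPKM with phenotype and 8589 and 7800 FPKM without phenotype, and none passed (8 lower at an unadjusted p under 0.05, against the same 6.67%). Over all genes tested the median was 0.070. Nplp2 is set beside the genes of the adult fat body, of which 8 of 15 had higher and 7 lower FPKM with phenotype. Their log2 fold changes ran from -2.63 (Fbp1) to 2.48 (Cyp4g1) around a median of 0.009, which was the value of Yp2. The 8 higher genes included the yolk protein genes Yp1, Yp2 and Yp3, with log2 fold changes of 0.051, 0.009 and 0.11. These yolk protein genes averaged only 1.7, 2.3 and 2.6 FPKM, so the even split rested partly on them. At an unadjusted p under 0.05 in limma, 4 of the 15 genes were higher and 4 lower, against 16% and 6.67% of all genes. Fbp2 was lower and past the threshold, against 0.0294% of all genes. No gene of the list was at 0, and the sums were 3216 and 2433 FPKM with phenotype and 4061 and 2337 FPKM without phenotype. The part of these tissues in the values of Nplp2 and Nplp3 was not tested. In whole heads, fewer cells of a type and less RNA per cell cannot be told apart.

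Dsk had the largest log2 fold change of the 10 genes by absolute size. Dsk codes for the drosulfakinins, satiety peptides related to cholecystokinin that are made in the insulin-producing cells and other neurons of the brain, and it is a gene of 1 exon on 3R at 4189692 to 4190260 (minus strand). Dsk was at 110.0 and 145.8 FPKM with phenotype, against 67.4 and 62.7 FPKM without phenotype. Every library with phenotype was higher than every library without, and the gap between groups was larger than the gap within either. The means were 128 ± 25.4 FPKM with phenotype and 65.1 ± 3.27 FPKM without phenotype (SD, n = 2 each), a ratio of 1.97. The log2 fold change was 0.95 with a standard error of 0.16 (95% confidence interval 0.53 to 1.37), the unadjusted p was 0.0026 and the adjusted p = 0.13 from limma did not pass. Leaving out each library in turn gave 0.75 to 1.15.

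Corazonin and the calcitonin-like hormone Dh31 followed with smaller differences. Crz codes for corazonin, a peptide of a few lateral brain neurons linked to stress and metabolism, on 3R at 14314854 to 14315716 (plus strand). Crz was at 36.1 and 48.5 FPKM with phenotype, against 30.0 and 29.0 FPKM without phenotype. The groups did not overlap, and the log2 fold change was 0.49 with a standard error of 0.16 (unadjusted p = 0.029, limma adjusted p = 0.19). Without repeat 2 with phenotype the log2 fold change of Crz was 0.28. Dh31, on 2L at 8491868 to 8506845 (minus strand), codes for diuretic hormone 31, which acts on the renal tubules and, from clock neurons, on sleep. Dh31 was at 82.0 and 98.7 FPKM with phenotype, against 64.9 and 68.2 FPKM without phenotype. These groups did not overlap either, at a ratio of means of 1.36 and a log2 fold change of 0.43 with a standard error of 0.12 (unadjusted p = 0.019, limma adjusted p = 0.17). In Crz and Dh31, as in Dsk, repeat 2 with phenotype was the highest library.

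Akh owed most of its difference to 1 library. Akh codes for adipokinetic hormone, which mobilises fat and sugar stores much as glucagon does, and is made in the corpora cardiaca, glands that lie behind the brain beside the foregut. The gene lies on 3L at 4141467 to 4142070 (plus strand). Akh was at 47.5 and 100.0 FPKM with phenotype, against 41.0 and 44.1 FPKM without phenotype. Repeat 2 with phenotype was 2.11 times repeat 1, while the 2 repeats without phenotype were 1.07 apart and close to repeat 1 with phenotype. The log2 fold change was 0.69 with a standard error of 0.36 (limma adjusted p = 0.32). It was 0.16 without repeat 2 and 1.22 without repeat 1 of the heads with phenotype. Of 23 tested digestive enzymes of the midgut, 8 were at higher FPKM with phenotype. The summed FPKM of the 31 such genes with a row was 117 and 301 with phenotype and 595 and 154 without phenotype. With phenotype that sum, like Akh, was higher in repeat 2 than in repeat 1, and its highest value was in repeat 1 without phenotype. The part of gut tissue in the values of Akh was not tested.

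sNPF differed little between the groups. sNPF codes for short neuropeptide F, a feeding and sleep peptide of many neurons, including Kenyon cells of the mushroom body, and spans 2L from 20027915 to 20056373 (plus strand) with 5 exons. sNPF was at 65.6 and 79.6 FPKM with phenotype, against 57.5 and 65.3 FPKM without phenotype. The highest library without phenotype was just under the lowest with phenotype, and the log2 fold change was 0.23 with a standard error of 0.13 (limma adjusted p = 0.34). Leaving out each library gave 0.098 (without repeat 2 with phenotype) to 0.37 (without repeat 1 with phenotype), and 0.14 without repeat 1 without phenotype. With libraries scaled by the median ratio the log2 fold change was 0.15 and the groups overlapped, at 64.9 and 76.1 with phenotype and 60.2 and 66.5 without phenotype.

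CCAP was the least abundant of the 10 genes. CCAP codes for crustacean cardioactive peptide, which drives the motor program of ecdysis and speeds the heart, on 3R at 22700582 to 22702084 (minus strand). CCAP was at 3.27 and 2.98 FPKM with phenotype, against 2.62 and 6.63 FPKM without phenotype. Repeat 2 without phenotype stood above the other 3 libraries, which lay close together, and the groups overlapped. The log2 fold change was -0.35 with a standard error of 0.37 (limma adjusted p = 0.58). Without repeat 2 of the heads without phenotype it was 0.19, and without repeat 1 of that group it was -0.89, so the direction of CCAP rested on 1 library. CCAP shares 78 bp of exons with CG6972 on the opposite strand, which was at 15.3 and 16.4 FPKM with phenotype and 18.5 and 22.4 FPKM without phenotype. The sources used here do not say whether the kit and the counting kept strand, so that reads in this stretch cannot be assigned to either gene.

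Counted together, 7 of the 10 genes had both libraries with phenotype above both without, which held for 41.3% of all genes tested. Nplp3 alone was below in both, against 18.3% of all genes. At an adjusted p under 0.1 none of the 10 was called, against 0.0883% of all genes (9 of 10194), and at an unadjusted p under 0.05 there were 3 higher, Dsk, Crz and Dh31, and 1 lower, Nplp3, against 16% and 6.67% of all genes. The median log2 fold change of the 10 genes was 0.35, beside 0.070 over all genes, and with median-ratio scaling it was 0.27, beside -0.0097. Under that scaling 6 of the 10 genes and 28.6% of all genes had no overlap with phenotype above. In 7 of the 10 genes the highest library was repeat 2 with phenotype, as in 42.4% of all genes. These were the same 7 genes that stood above without overlap, a combination found in 29.7% of all genes. Without repeat 2 with phenotype the median of the 10 was 0.15, beside 0.046 over all genes. The summed FPKM of the 10 genes, nearly all of it from Nplp2 and Nplp3, was 11040 and 10230 with phenotype and 12970 and 10270 without phenotype. The 7 genes other than Nplp2, Nplp3 and Nplp4 summed to 419 and 565 FPKM with phenotype and to 327 and 346 FPKM without phenotype.

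The median log2 fold change of neuronal transcripts was near that of all genes tested. Of 10 neuronal and synaptic genes, 9 were at higher FPKM with phenotype, with a median log2 fold change of 0.11, against 62.7% and 0.070 over all genes. With median-ratio scaling it was 6 of 10 and 0.026, against 47.8% and -0.0097, and none passed (1 higher at an unadjusted p under 0.05, against 16% of all genes). In 7 of these 10 genes both libraries with phenotype were above both without and in 0 below, against 41.3% and 18.3% of all genes. Repeat 2 with phenotype was the highest library in 8 of them, against 42.4% of all genes. With median-ratio scaling 5 were above without overlap, against 28.6% of all genes. The summed FPKM of the 10 neuronal genes was 1234 and 1314 with phenotype and 1127 and 1202 without phenotype, and none was at 0 in any library. Each of the 10 precursors was set against these sums. As a share of the neuronal FPKM, 6 precursors were higher in both libraries with phenotype than in both without (Nplp1, Nplp2, Dsk, Crz, Dh31 and Akh). Nplp3 was lower, and Nplp4, sNPF and CCAP overlapped. The share of all genes without overlap under this division was not computed, so these counts cannot be set against a background. Dsk amounted to 8.91% and 11.1% of the neuronal sum with phenotype and to 5.98% and 5.22% without phenotype. sNPF amounted to 5.32% and 6.05% with phenotype and to 5.10% and 5.44% without phenotype. The part of neuronal content in the values of the precursors was not tested.

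A wider list of 36 other genes for neuropeptides and peptide hormones placed the 10 genes among their kind. Of these, 35 had a row and 28 reached the mean of 1 FPKM. Of these 28 genes, 25 were at higher FPKM with phenotype and 3 at lower (AstCC, Eh and SIFa), with a median log2 fold change of 0.42. In 23 of them both libraries with phenotype were above both without and in 0 below, against 41.3% and 18.3% of all genes. In 24 of them repeat 2 with phenotype was highest, against 42.4% of all genes. None passed limma's test, while 19 were higher at an unadjusted p under 0.05 and 0 lower, against 16% and 6.67% of all genes. With median-ratio scaling 24 of the 28 were higher, with a median of 0.33, against 47.8% and -0.0097 over all genes. Under that scaling 20 were above without overlap, against 28.6% of all genes. Without repeat 2 with phenotype the median was 0.31, beside 0.046 over all genes. Over the 35 genes with a row the summed FPKM was 1636 and 1986 with phenotype and 1223 and 1292 without phenotype. As the plot of fold changes by precursor shows, Dsk stood at the upper end of all 38 tested precursors and Nplp3, Nplp4, Eh and CCAP at the lower end.

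**Figure D3:**
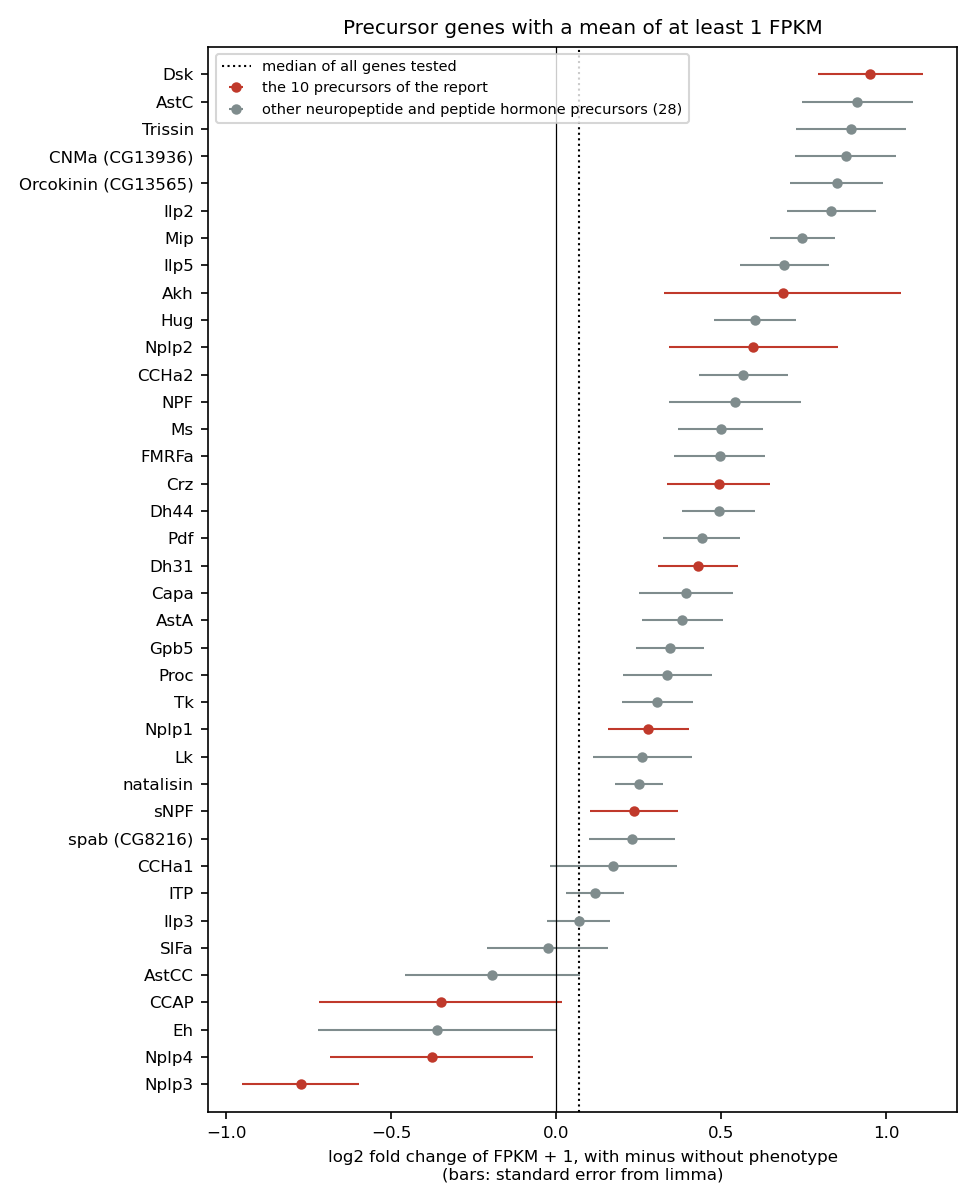
log2 fold change of FPKM + 1, with minus without phenotype (horizontal axis), for the 10 precursors (red) and 28 other precursors (grey) that reached a mean of 1 FPKM, where bars are standard errors from limma and the dotted line is the median of all genes tested. Of the 38 genes 32 lie above 0, and none passed the test.

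The most abundant of the other precursors were Ms, Ilp2 and spab. Ms, which codes for myosuppressin, a peptide that quiets visceral muscle, was at 226 and 275 FPKM with phenotype, against 173 and 179 FPKM without phenotype (log2 fold change 0.50, limma adjusted p = 0.16). Ilp2, an insulin-like peptide of the same brain cells that make Dsk, was at 189 and 234 FPKM with phenotype, against 120 and 115 FPKM without phenotype (0.83, limma adjusted p = 0.13). The precursor spab, listed as CG8216, was at 102 and 124 FPKM with phenotype, against 91.9 and 100.1 FPKM without phenotype (0.23, limma adjusted p = 0.34). The largest differences were those of AstC, Trissin and CNMa. AstC, which codes for allatostatin C, a peptide related to somatostatin, was at 95.7 and 130.0 FPKM with phenotype, against 57.3 and 60.3 FPKM without phenotype (0.91, limma adjusted p = 0.14). Trissin was at 72.9 and 97.6 FPKM with phenotype, against 42.5 and 47.5 FPKM without phenotype (0.89, limma adjusted p = 0.14). CNMa, listed as CG13936, was at 2.79 and 3.71 FPKM with phenotype, against 1.30 and 1.30 FPKM without phenotype (0.88, limma adjusted p = 0.13). In all 6 genes the groups did not overlap and repeat 2 with phenotype was the highest library.

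The receptors of these peptides were at lower FPKM than most of the precursors. Of 8 genes for receptors of the 10 precursors' peptides, 5 were at higher and 3 at lower FPKM with phenotype, with a median log2 fold change of 0.061, or 4 higher and a median of -0.015 with median-ratio scaling. None passed limma's test (2 higher and 0 lower at an unadjusted p under 0.05, against 16% and 6.67% of all genes). AkhR, the adipokinetic hormone receptor of the fat body, was at 31.1 and 35.0 FPKM with phenotype, against 28.3 and 24.9 FPKM without phenotype (0.30, limma adjusted p = 0.21). Dh31-R was at 12.4 and 14.0 FPKM with phenotype, against 11.2 and 11.0 FPKM without phenotype (0.23, limma adjusted p = 0.21). For these 2 pairs both precursor and receptor were above without overlap, as they were for Dsk with CCKLR-17D3 and sNPF with sNPF-R. Of the 8 receptors, 4 were above without overlap and 2 below, against 41.3% and 18.3% of all genes. With median-ratio scaling 2 were above, AkhR and Dh31-R, against 28.6% of all genes. Under that scaling CCKLR-17D3, sNPF-R and sNPF itself overlapped between the groups. The share of gene pairs with both genes above was not computed. CrzR, the corazonin receptor, was at 10.5 and 9.75 FPKM with phenotype, against 11.6 and 11.6 FPKM without phenotype (-0.18, limma adjusted p = 0.24), so that receptor and precursor stood on opposite sides of 0. Gyc76C, a guanylyl cyclase that responds to a peptide of Nplp1, was at 7.18 and 6.93 FPKM with phenotype, against 7.91 and 9.33 FPKM without phenotype (-0.25, limma adjusted p = 0.23).

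The receptor CCAP-R was at 2.10 and 2.14 FPKM with phenotype, against 2.00 and 4.03 FPKM without phenotype (-0.32, limma adjusted p = 0.50). Like CCAP, it had its highest value in repeat 2 without phenotype, with the other 3 libraries close together, and without that library its log2 fold change was 0.057. The 2 receptors of the drosulfakinins, CCKLR-17D1 and CCKLR-17D3, differed little, and the groups overlapped in CCKLR-17D1 but not in CCKLR-17D3. CCKLR-17D1 was at 4.98 and 5.93 FPKM with phenotype, against 5.23 and 5.63 FPKM without phenotype, and CCKLR-17D3 at 8.55 and 10.0 FPKM with phenotype, against 8.42 and 8.46 FPKM without phenotype. The receptor sNPF-R was at 9.28 and 9.30 FPKM with phenotype, against 8.16 and 8.80 FPKM without phenotype.

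Of 28 tested receptors of other neuropeptides, 23 were at higher and 5 at lower FPKM with phenotype, with a median log2 fold change of 0.13, and 20 with a median of 0.059 under median-ratio scaling. None passed limma's test, and 3 higher and 1 lower had an unadjusted p under 0.05, against 16% and 6.67% of all genes. In 19 of the 28 both libraries with phenotype were above both without and in 2 below, against 41.3% and 18.3% of all genes. With median-ratio scaling 11 were above without overlap, against 28.6% of all genes. PK1-R, a pyrokinin receptor, stood apart at 5.77 and 5.69 FPKM with phenotype, against 8.48 and 8.73 FPKM without phenotype (-0.51, limma adjusted p = 0.12). The largest positive differences were those of Dh44-R1, a receptor of diuretic hormone 44 (0.44, limma adjusted p = 0.14), and NPFR, the neuropeptide F receptor (0.28, limma adjusted p = 0.25). The most abundant were Pdfr, Dh44-R2 and Proc-R, with log2 fold changes of 0.11, 0.13 and 0.014, the last of which was -0.068 with median-ratio scaling.

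The enzymes that make peptides from precursors were also measured. Of 17 tested genes for peptide processing and dense core vesicles, 14 were at higher and 3 at lower FPKM with phenotype, with a median log2 fold change of 0.15, or 12 higher and a median of 0.066 with median-ratio scaling. Both libraries with phenotype were above both without in 11 of them and below in 2, against 41.3% and 18.3% of all genes, and none passed limma's test (4 higher and 0 lower at an unadjusted p under 0.05, against 16% and 6.67% of all genes). With median-ratio scaling 8 of the 17 were above without overlap, against 28.6% of all genes. The gene amon, the prohormone convertase PC2 of the fly, was at 94.5 and 107 FPKM with phenotype, against 78.5 and 79.7 FPKM without phenotype (0.34, limma adjusted p = 0.17). Its chaperone 7B2 was at 310 and 376 FPKM with phenotype, against 257 and 255 FPKM without phenotype (0.41, limma adjusted p = 0.18). Pal2, which completes the amidation of peptides, was at 164 and 183 FPKM with phenotype, against 125 and 133 FPKM without phenotype (0.42, limma adjusted p = 0.15). The groups did not overlap in these 3 genes, and repeat 2 with phenotype was highest in each.

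The other abundant genes of the list differed less. IA-2, a protein of the dense core vesicle membrane, was at 414 and 427 FPKM with phenotype, against 350.0 and 409 FPKM without phenotype (0.15, limma adjusted p = 0.46). Rab2, a small GTPase needed to form such vesicles, was at 160 and 165 FPKM with phenotype, against 158 and 162 FPKM without phenotype (0.025, limma adjusted p = 0.88), and at -0.062 with median-ratio scaling. The plot of fold changes by list sets the precursors beside their receptors, their processing genes and the markers of other tissues.

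**Figure D4:**
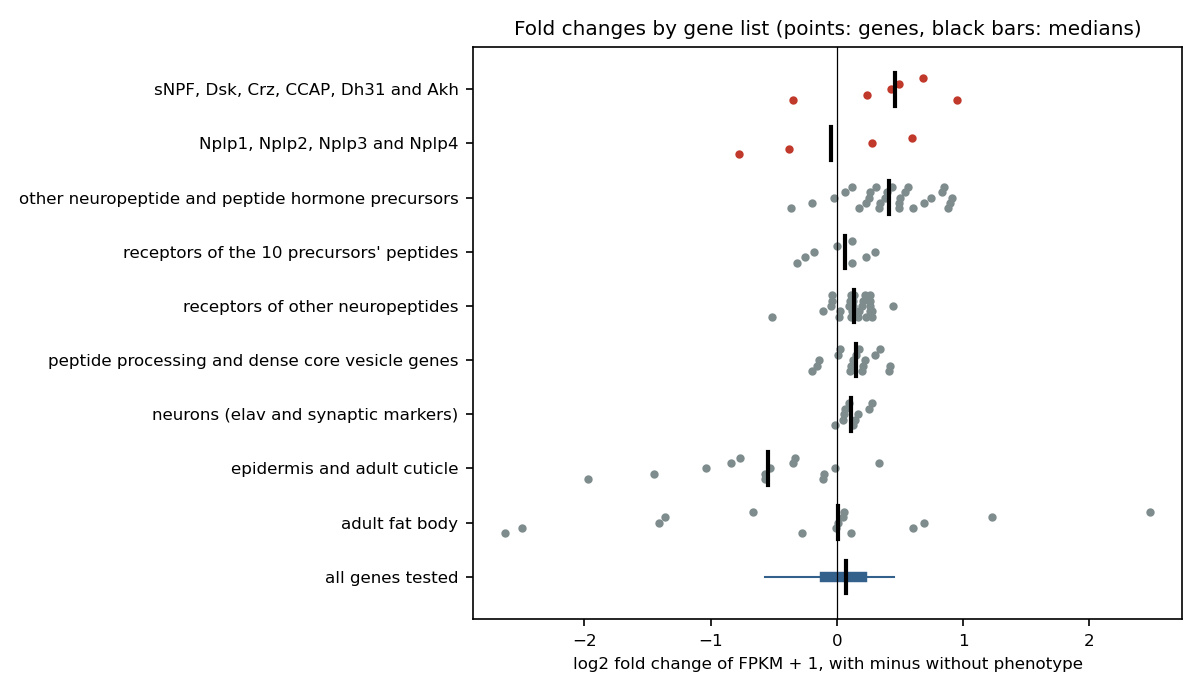
log2 fold change of FPKM + 1, with minus without phenotype (horizontal axis), where points are tested genes, black bars are list medians, and for all genes tested the thick and thin blue lines span the middle 50% and 90%. The median of the other precursors is 0.42 and that of the processing genes 0.15, beside 0.070 over all genes tested and -0.55 for epidermis and adult cuticle.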

How the data were processed

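Total RNA of 10 heads per library was selected for polyA and sequenced from 1 end for 50 cycles on an Illumina HiSeq2500. Bowtie2 alignment to dm6 RefSeq transcripts and RSEM quantification were done by the authors, and the deposited table holds FPKM per gene and library. The submitters' processing notes also list dm3, and the sources used here give no tool versions. Whole reads were not recovered, so the total depth is unknown and no count test was run.

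Every gene averaging 1 FPKM or more entered a limma 3.58.1 fit of log2(FPKM + 1) (lmFit, eBayes with trend, two-sided, R 4.3.3), with Benjamini-Hochberg adjustment over all genes tested and a threshold of 0.1. The study's own test needs counts and was not run. The 10 genes and the lists were chosen with earlier results of these data known, and 193 of 199 list names had a row. Beside the 10 genes, those named are the 3 of highest mean and the 3 of largest absolute log2 fold change per list, and the nearest 3 genes to Nplp2, Nplp3 and Nplp4. Others were singled out after their values were seen. The fit was tested on simulated data. Coordinates and residue counts are those of the Ensembl annotation of dm6, and names were matched through RefSeq. The alternatives changed the pseudocount, filter, scaling, trend, threshold and block, or left out a library. Tables were made with Python 3.11.15 and pandas 2.3.3.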

Additional observations from a re-analysis of the deposited data

How the results depend on the processing

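The number of all genes called moved with most settings. With 6 higher and 3 lower as reported, it was 13 and 10 with a pseudocount of 0.1, 66 and 43 with a filter at a mean of 5 FPKM, 2 and 1 with no filter, 0 and 1 with median-ratio scaling, 11 and 9 after rescaling to the same sum, 3 higher without the trend, and 3 and 1 at an adjusted p under 0.05. Leaving out each library gave 0 to 206 higher and 0 to 401 lower, with 0 when either library with phenotype was left out. With the repeat number as a block, 0 were higher and 0 lower (2070 at an unadjusted p under 0.05). The repeat numbers were not shown to pair the libraries, since deviations of same-numbered repeats correlated at -0.129 across 10194 genes. With crossed pairs, chosen after seeing the data, 167 were higher and 237 lower over all genes, 1 higher (Dsk) and 1 lower (Nplp3) among the 10 precursors, 7 higher among the other precursors and 1 lower among the receptors of other neuropeptides. Calls of single genes are not given for fits that left out a library. In those fits 1 group held 1 library, and the number of all genes called varied widely, as given above. With the filter at 5 FPKM, 1 other precursor was called higher (Mip). Directions turned when a library was left out. Leaving out each in turn gave -0.79 to 0.032 for Nplp4 and -0.89 to 0.19 for CCAP, -0.69 to 0.057 for CCAP-R and -0.011 to 0.040 for Proc-R, with the upper value of Nplp4 without repeat 1 without phenotype, those of CCAP and CCAP-R without repeat 2 without phenotype, and the lower value of Proc-R without repeat 1 with phenotype. With median-ratio scaling Proc-R was at -0.068 and Rab2 at -0.062. The cause was not tested. Of 444 log2 fold changes of single genes under the alternatives, 428 kept their direction and side of the threshold, 10 passed it and 6 turned. The 10 include values from fits that left 1 library in a group. Changes of filter, trend or block cannot alter a log2 fold change in this design. A direction could therefore turn only under changes of pseudocount or scaling or without a library.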

Other observations

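Repeat 2 without phenotype, where CCAP and CCAP-R had their highest values, was the highest library for 25% of all genes tested. Among the other precursors it was the highest for AstCC, SIFa and Eh. The genes in this paragraph were singled out after their values were seen. Eh, the eclosion hormone gene, was at 13.4 and 6.28 FPKM with phenotype and 10.3 and 14.3 FPKM without phenotype (log2 fold change -0.36, limma adjusted p = 0.56). Burs and Pburs, the subunits of the tanning hormone bursicon, were under the filter and not tested. Burs was at 0.35 and 0.29 FPKM with phenotype and 0.21 and 0.81 FPKM without phenotype, and Pburs at 0.41 and 0.34 FPKM with phenotype and 0.25 and 1.24 FPKM without phenotype. They too had their highest value in that library. ETH, the gene for ecdysis triggering hormone, had its highest value in the other library without phenotype, at 0.51 and 0.79 FPKM with phenotype and 1.26 and 0.48 FPKM without phenotype. CCAP itself rested on about 227 and 182 reads with phenotype and 164 and 458 reads without phenotype, estimated from the lowest FPKM values.

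The gene dimm, a transcription factor of peptide-secreting cells also chosen with its values known, was under the filter and not tested. It was at 0.90 and 0.85 FPKM with phenotype and 0.36 and 0.40 FPKM without phenotype. Mip, the gene for myoinhibitory peptides, had the smallest adjusted p of the precursors, at 52.2 and 58.9 FPKM with phenotype and 31.7 and 33.7 FPKM without phenotype (log2 fold change 0.75, limma adjusted p = 0.11).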
